A study of Homo sapiens with 6 samples.

Results

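The genes described here are those whose symbols begin with ZBTB, ZSCAN or ZKSCAN followed by a number, as annotated on a human expression array. A probe set, the group of short probes that reports 1 transcript, was taken as a member when its annotation gave exactly 1 such gene symbol. This gave 75 genes with 164 probe sets, of 19775 genes with 41097 single-symbol probe sets on an array of 54675 probe sets. Of the 75 symbols, 66 are zinc finger genes (41 ZBTB, 18 ZSCAN and 7 ZKSCAN). The other 9 are antisense, opposite-strand, divergent or pseudogene loci such as ZBTB8OS and ZSCAN16-AS1. They match the letters but are not counted as zinc finger genes, and were counted apart.

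The arrays compared HEK293 cells, a human embryonic kidney line, transfected for 72 h with an siRNA against BAHD1 (3 biological replicates) or with a control siRNA (3 biological replicates). Both siRNAs came from the same supplier and were delivered with the same lipid reagent, so transfection was common to both groups, and the sequence and number of the siRNAs are not given in the sources used here. The BAHD1 protein helps to form heterochromatin and to silence genes, and is named for its bromo-adjacent homology domain. The comparison asks which transcripts change when its mRNA is targeted.

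ZBTB proteins join an N-terminal BTB (also called POZ) domain, which forms dimers and docks corepressors such as NCOR, SMRT and BCOR, to C-terminal zinc fingers that bind DNA. ZSCAN proteins carry a SCAN domain, a dimerization module of zinc finger proteins, and ZKSCAN proteins carry a KRAB domain as well, the module through which many zinc finger proteins recruit TRIM28. Several ZBTB proteins, among them ZBTB33 (Kaiso), ZBTB4 and ZBTB38, bind methylated CpG dinucleotides. Many of the family are repressors and, like BAHD1, work with histone deacetylases and HP1 proteins, or with proteins that recruit them.

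A total of 3 genes had a probe set that passed the test described below, ZBTB2, ZKSCAN1 and ZSCAN32, and their promoters are shown for that reason alone. The sequences are RefSeq promoters of assembly GRCh38.p14, 250 bases before to 50 after the transcription start, read 5′ to 3′ on the gene's strand, with CpG dinucleotides in capitals. They lie at chr6:151391510-151391809 (minus strand) for ZBTB2, chr7:100015346-100015645 (plus strand) for ZKSCAN1 and chr16:3400955-3401254 (minus strand) for ZSCAN32.
ZBTB2: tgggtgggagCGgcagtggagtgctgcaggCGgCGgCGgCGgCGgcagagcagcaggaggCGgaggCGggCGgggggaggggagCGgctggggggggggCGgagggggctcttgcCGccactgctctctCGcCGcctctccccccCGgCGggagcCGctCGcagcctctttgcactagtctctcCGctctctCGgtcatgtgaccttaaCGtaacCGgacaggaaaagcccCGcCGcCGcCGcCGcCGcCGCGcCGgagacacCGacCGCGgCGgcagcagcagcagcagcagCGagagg
ZKSCAN1: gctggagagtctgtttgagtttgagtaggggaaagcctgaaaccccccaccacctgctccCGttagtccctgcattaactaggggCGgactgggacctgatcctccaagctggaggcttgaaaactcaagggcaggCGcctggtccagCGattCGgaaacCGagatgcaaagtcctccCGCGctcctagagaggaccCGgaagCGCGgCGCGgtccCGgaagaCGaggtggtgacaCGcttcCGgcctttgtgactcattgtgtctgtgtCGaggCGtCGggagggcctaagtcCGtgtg
ZSCAN32: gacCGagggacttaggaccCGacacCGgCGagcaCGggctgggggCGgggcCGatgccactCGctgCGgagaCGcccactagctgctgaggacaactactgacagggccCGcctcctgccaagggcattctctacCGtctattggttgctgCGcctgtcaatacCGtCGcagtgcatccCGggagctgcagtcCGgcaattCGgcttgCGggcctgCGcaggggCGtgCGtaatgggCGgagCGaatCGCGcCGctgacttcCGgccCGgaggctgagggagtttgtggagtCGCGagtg
The ZBTB2 promoter holds 36 CpG dinucleotides, more than 87.3% of the 35116 promoters in the table. The ZSCAN32 promoter holds 31, more than 79.3% of promoters, and the ZKSCAN1 promoter holds 21, more than 60.5%. The median was 21 CpG over the 104 promoters of 57 of the zinc finger genes, against 14 over all promoters of 27305 genes. The unmethylated recognition sequence of Kaiso, TCCTGCNA, was searched on both strands. It occurred in 6 of the 104 family promoters (5.77%), that of ZSCAN32 among them, against 1648 of all 35116 (4.69%). These letters describe the windows only, since no binding or methylation was measured here.

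BAHD1 itself gave signals of 36.6, 46.8 and 41.2 with BAHD1 siRNA, against 62.9, 55.7 and 46.7 with control siRNA, on its probe set 203051_at. The fitted level with BAHD1 siRNA was 76.0% of that with control siRNA, and the groups overlapped narrowly, since the second BAHD1 siRNA array stood just above the third control array. The log2 fold change, always BAHD1 siRNA over control siRNA and on log2(signal + 1), was -0.40 ± 0.19 (SE), with an adjusted p of 0.251 in limma and a two-sided exact permutation p of 0.2. The smallest p that 3 against 3 arrays can give in that permutation test is 0.1. The arrays thus carry a lower mean of the targeted mRNA that did not pass the test.

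Signals are linear intensities scaled so that each array's mean, without the top and bottom 2%, was 100, and array medians ran from 17.5 to 19.5 with BAHD1 siRNA and from 15.9 to 17.9 with control siRNA. Log2 signals of arrays correlated at 0.9739 to 0.9777 within a group and at 0.9655 to 0.9724 between groups, and at most 1.08% of values were identical in any pair of arrays. Among the 6865 dimmest tested probe sets of the array, 60.9% were higher with BAHD1 siRNA (median log2 fold change 0.11), against 42.1% of the brightest 6865 (median -0.04), a signal-dependent shift whose part in the results was not tested. The 24 probe sets for bacterial poly-A RNA, added to the sample before labelling, were all higher with BAHD1 siRNA, by a median of 0.58, and their part was not tested either. All 8 of the HEK293 markers looked up were above the filter level. By the brightest probe set, 6 were higher and 2 lower with BAHD1 siRNA, and 3 passed in limma (37.5%, against 5.52% of all genes): VIM fell (-0.32, adjusted p = 0.0318), while NEFL (0.37, adjusted p = 0.0457) and NEFM (0.58, adjusted p = 0.0473) rose. With 1 error prior for all intensities in limma, 0 of the markers passed (adjusted p of 0.196 for VIM, 0.23 for NEFL and 0.196 for NEFM). The part of these marker differences in the family's results was not tested. Of 13 markers of blood, endothelium, liver, astrocytes, muscle and skin, 12 had a single-symbol probe set and 2, HBB and PECAM1, passed the filter, with signals of at most 32.4.

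Of the 164 family probe sets, 110 from 62 genes were tested, having exceeded a signal of 17.9 on 3 or more of the 6 arrays. With an error model that follows signal intensity (limma's intensity-trend fit) and Benjamini-Hochberg adjustment over all 27458 probe sets tested, 3 of the 110 passed at an adjusted p under 0.05 (2.73%), against a background of 4.45% over the array. ZBTB2 and ZSCAN32 rose with BAHD1 siRNA, 1.82% of the family's probe sets against 2.17% of all, and ZKSCAN1 fell, 0.909% against 2.28%. With 1 error prior for all intensities, 0 of the 110 passed, as did 0.0% of the whole array. At an unadjusted p under 0.05 in the intensity-trend fit there were 12 family probe sets (10.9%; 5 higher and 7 lower), against 20.9% of all. The groups did not overlap for 25 family probe sets (22.7%; 11 higher and 14 lower, from 21 genes), against 25.6% of all. By each of these counts the family's share was under the array's or, with 1 prior, 0 like it, and some shares were close. Calls were rarer among dim probe sets: 26 higher and 7 lower in the dimmest 6865 tested, against 258 and 384 in the brightest 6865. The family had 37 probe sets among the former and 13 among the latter, and the shares above were not matched for signal.

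ZBTB2, a BTB zinc finger repressor known to act on the p53 pathway, gave signals of 200.9, 207.2 and 231.2 with BAHD1 siRNA, against 160.1, 155.8 and 167.0 with control siRNA. Each BAHD1 siRNA array stood above each control array. The log2 fold change was 0.40 ± 0.10 with an adjusted p of 0.0395 (limma intensity-trend fit), and 0.16 with 1 prior. ZBTB2 has a single probe set on the array, so no other probe set bears on its change. In bulk RNA, a change in all cells and a change in some of them cannot be told apart. The call held without BAHD1 siRNA replicate 1 and was lost without each of the other 5 arrays, where the adjusted p reached 0.166 and the log2 fold change stayed between 0.34 and 0.44.

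ZKSCAN1, a SCAN and KRAB zinc finger gene known for an abundant circular RNA made from its exons, had a probe set that fell and others that did not pass. On probe set 1557953_at its signals were 95.7, 88.1 and 76.7 with BAHD1 siRNA, against 126.6, 137.0 and 138.4 with control siRNA, with no overlap. The log2 fold change was -0.62 ± 0.13 with an adjusted p of 0.0192 (limma intensity-trend fit), and 0.132 with 1 prior. The brighter probe set 225221_at gave 444.5, 465.9 and 420.2 with BAHD1 siRNA, against 478.7, 469.8 and 478.5 with control siRNA. Its groups did not overlap either, with BAHD1 siRNA lower, but the log2 fold change was a small -0.10 ± 0.07 that did not pass (adjusted p = 0.463). The remaining probe sets, 214670_at and 214900_at, gave 0.05 and -0.08. Of the gene's 4 tested probe sets, 1 passed, and which transcripts each probe set reports was not tested. The call on 1557953_at was lost without BAHD1 siRNA replicate 2 or 3 and without control replicate 1 or 2 (adjusted p up to 0.0773), and the log2 fold change ran from -0.70 to -0.54 over the 6 omissions.

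ZSCAN32 showed the same split between probe sets, in the other direction. Probe set 220292_at gave 44.9, 54.9 and 44.4 with BAHD1 siRNA, against 25.5, 21.6 and 15.7 with control siRNA, so that all 3 BAHD1 siRNA arrays were above all 3 control arrays. The log2 fold change was 1.18 ± 0.25 with an adjusted p of 0.0218 (limma intensity-trend fit), and 0.132 with 1 prior. Its control signals lie near the filter level of 17.9, and on log2(signal + 16), which damps dim signals, the value was 0.80. The second probe set, 218937_at, gave 100.5, 98.1 and 114.1 with BAHD1 siRNA, against 84.1, 119.3 and 109.6 with control siRNA, a log2 fold change of 0.01 ± 0.15. The call on 220292_at was lost without BAHD1 siRNA replicate 2 or 3 and without control replicate 2 (adjusted p up to 0.103), with log2 fold changes from 1.0 to 1.33 over the 6 omissions.

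**Figure D1:**
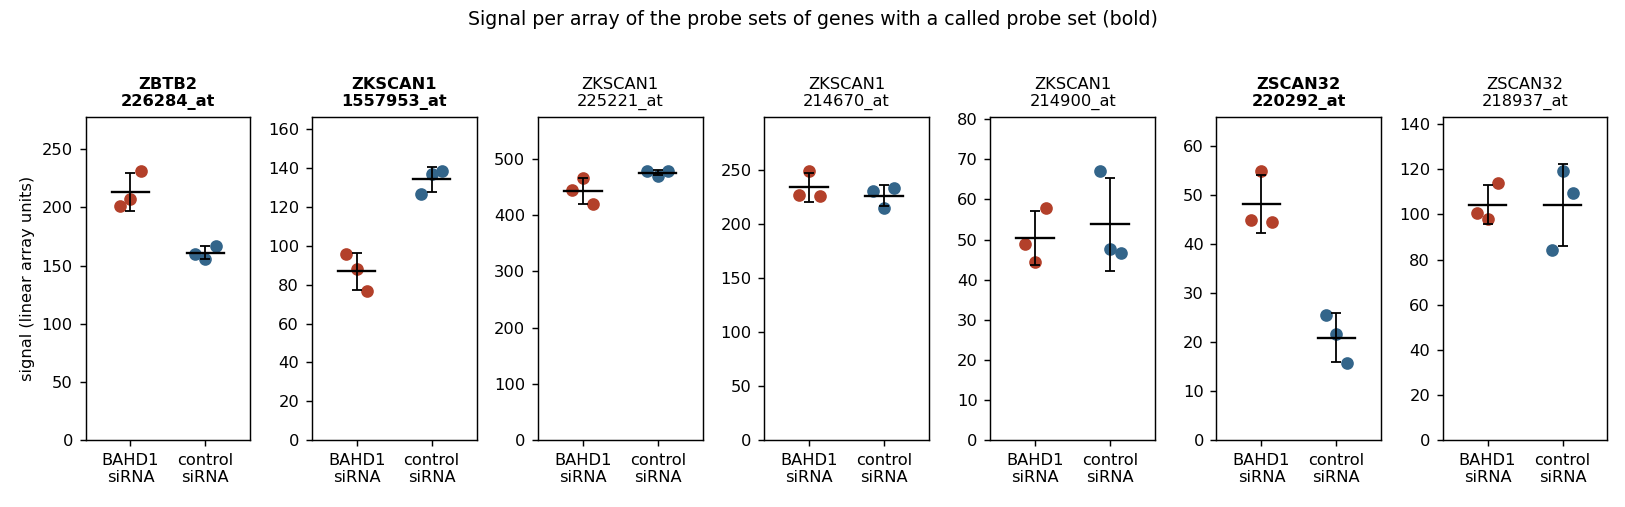
Signal per array (linear units, axes from 0) of every tested probe set of ZBTB2, ZKSCAN1 and ZSCAN32, with BAHD1 siRNA left of control siRNA, 3 arrays each. Points are arrays in replicate order, horizontal lines are means and bars are SD. The groups separate widely in the 3 panels with bold titles and lie close together or overlap in the other probe sets of ZKSCAN1 and ZSCAN32.

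**Figure D2:**
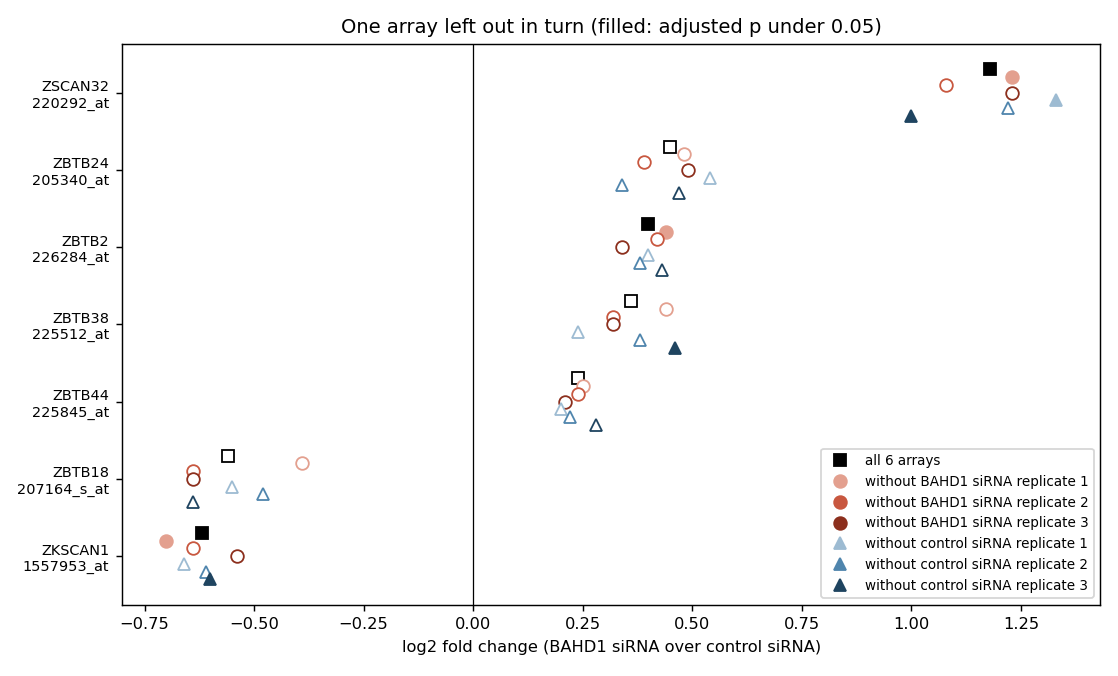
Log2 fold change (BAHD1 siRNA over control siRNA) of the 7 family probe sets with the smallest p, with all 6 arrays (squares) and with 1 array left out in turn (circles for BAHD1 siRNA arrays, triangles for control arrays). Filled symbols have an adjusted p under 0.05. Every probe set keeps its direction, while the calls of ZSCAN32, ZBTB2 and ZKSCAN1 come and go with the array left out.

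ZBTB24, a gene whose loss causes a form of the ICF immunodeficiency syndrome with reduced DNA methylation at centromeric repeats, came nearest to the threshold. Its probe set 205340_at gave 169.6, 192.3 and 167.2 with BAHD1 siRNA, against 145.7, 110.3 and 131.4 with control siRNA, without overlap, at a log2 fold change of 0.45 ± 0.12 and an adjusted p of 0.0537 (limma). The second probe set of ZBTB24, 1554037_a_at, gave 0.16 ± 0.33. Probe set 205340_at did pass under array weights and under a stricter intensity filter, so its place just outside the threshold depends on the setting. In those settings 5.54% and 11.7% of all probe sets passed.

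The methyl-CpG-binding branch of the family showed no called change. ZBTB33 (Kaiso), which binds methylated CpG pairs as well as the sequence named above, gave 890.9, 861.3 and 845.4 with BAHD1 siRNA, against 875.2, 856.9 and 766.4 with control siRNA on 226255_at. These arrays overlap, and the log2 fold change was 0.06 ± 0.07 (adjusted p = 0.686). ZBTB4, its relative, gave 0.15 ± 0.10 on 225629_s_at and -0.11 ± 0.20 on 227047_x_at. ZBTB38, the other relative, had probe sets that pointed in different directions. On 225512_at it gave 285.2, 334.8 and 335.7 with BAHD1 siRNA, against 208.7, 254.8 and 285.5 with control siRNA, overlapping at 285 and with a log2 fold change of 0.36 ± 0.12 (adjusted p = 0.0983). On 219221_at it gave 87.1, 71.8 and 92.8 with BAHD1 siRNA, against 111.3, 110.7 and 89.8 with control siRNA, a log2 fold change of -0.31 ± 0.15 (adjusted p = 0.25). Neither passed in this fit, which has no covariates. The first passed without control replicate 3 (adjusted p = 0.0458).

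ZBTB18 (RP58), a repressor in developing neurons, also split by probe set. The dimmer probe set 207164_s_at gave 37.5, 53.0 and 53.6 with BAHD1 siRNA, against 70.8, 78.5 and 62.4 with control siRNA, without overlap, at -0.56 ± 0.18 (adjusted p = 0.104). The brighter probe set 212774_at gave 787.9, 867.1 and 871.4 with BAHD1 siRNA, against 744.1, 814.7 and 830.7 with control siRNA, at 0.08 ± 0.07. ZBTB44 had 4 tested probe sets on the same side, between 0.05 and 0.24, none of which passed. Its probe set 225845_at gave 534.2, 543.8 and 568.9 with BAHD1 siRNA, against 443.5, 458.2 and 498.4 with control siRNA (0.24 ± 0.07, adjusted p = 0.0954). ZBTB47 had 3 probe sets between 0.28 and 0.38, with 226500_at at 0.33 ± 0.16 (adjusted p = 0.249). ZBTB8A, with 1 probe set, gave 304.1, 295.0 and 310.4 with BAHD1 siRNA, against 348.5, 341.4 and 358.7 with control siRNA (-0.20 ± 0.08, adjusted p = 0.154).

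The best-known ZBTB regulators gave no called change. ZBTB7A (LRF), a repressor of fetal globin genes, had log2 fold changes of 0.08 ± 0.17 and -0.27 ± 0.22 on its 2 tested probe sets. ZBTB17 (MIZ1), a DNA-binding partner of MYC, had -0.07 ± 0.12 on 203602_s_at and -0.35 ± 0.23 on 203601_s_at. ZBTB16 (PLZF), named for its fusion to the retinoic acid receptor in leukaemia, was dim, with 28.4, 17.4 and 17.7 with BAHD1 siRNA, against 23.7, 31.0 and 14.4 with control siRNA, signals that overlap throughout. ZBTB20, a repressor of alpha-fetoprotein in the liver, had 7 tested probe sets with values from -0.45 to 0.25, all with signals under 50. ZBTB10, which binds variant telomere repeats, had 5 tested probe sets between -0.14 and 0.14. ZBTB43 had 5 tested probe sets from -0.46 to 0.23, with 227991_x_at at -0.46 ± 0.19 (adjusted p = 0.18).

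Among the SCAN genes, ZSCAN30 had 4 tested probe sets at 0.55, 0.34, 0.03 and -0.43, none of which passed. ZSCAN12 had 1 at 0.82 ± 0.46 with signals of 15.5, 26.9 and 22.0 with BAHD1 siRNA, against 11.0, 7.4 and 18.0 with control siRNA, and another, brighter one at -0.02 ± 0.17. ZKSCAN3, described as a repressor of autophagy genes, gave -0.01 ± 0.16 on 235840_at, its brightest probe set. ZKSCAN8 gave 51.1, 49.7 and 55.0 with BAHD1 siRNA, against 68.5, 66.2 and 68.4 with control siRNA on 206579_at, without overlap (-0.38 ± 0.15, adjusted p = 0.175), but -0.01 ± 0.09 on 226102_at. ZKSCAN2 had the lowest fold change of the family, -1.48 ± 0.99 (adjusted p = 0.459), the size of which rests on 1 array. Its signals were 3.2, 50.3 and 48.1 with BAHD1 siRNA, against 64.8, 61.1 and 55.5 with control siRNA, without overlap.

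**Figure D3:**
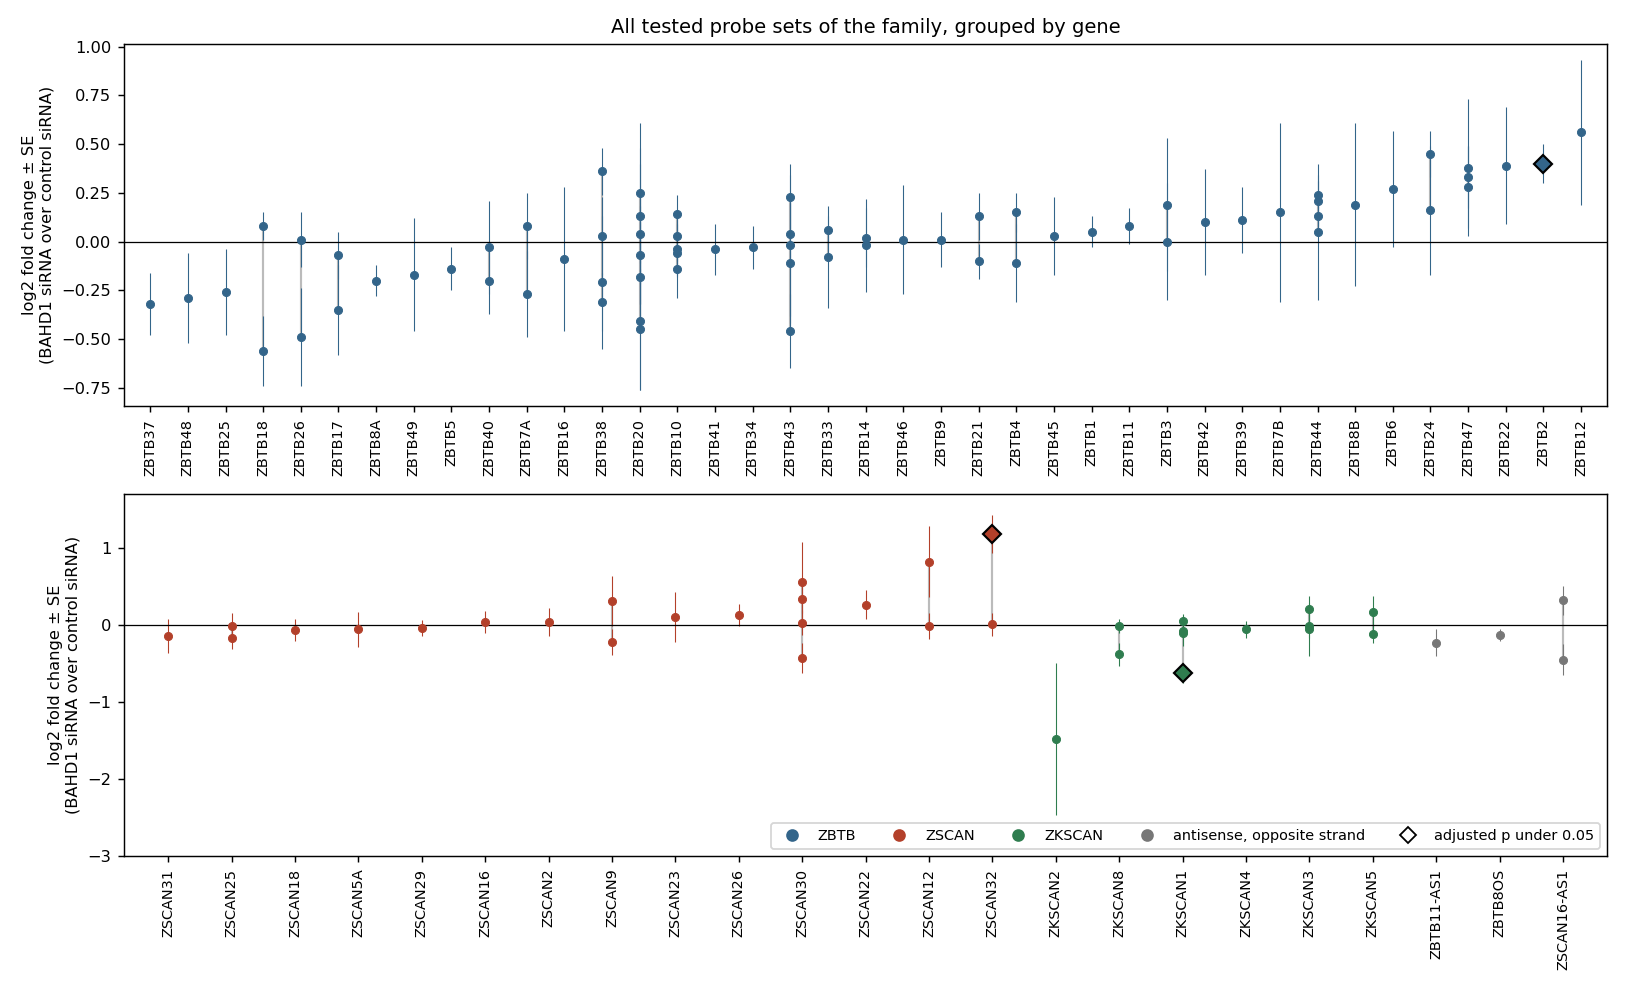
Log2 fold change ± SE (BAHD1 siRNA over control siRNA) of the 110 tested probe sets, with 1 column per gene: ZBTB genes above, and ZSCAN, ZKSCAN and the antisense and opposite-strand genes below. Within each class genes run from the lowest to the highest median, grey lines join probe sets of 1 gene, and black-edged diamonds mark ZBTB2, ZSCAN32 and ZKSCAN1. ZSCAN32 spans 1.17 between its probe sets.

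In genes with several probe sets, values of both signs were common, but the same share over all genes of the array was not counted. Many of these values were small: the median size of the family's log2 fold changes was 0.13, and ZBTB14 had -0.02 and 0.02. Of the 62 tested genes, 35 had 1 tested probe set and 27 had more, and in 18 of those 27 the probe sets had log2 fold changes of both signs. The median distance between the highest and lowest probe set of a gene was 0.30, and the widest was the 1.17 of ZSCAN32. Represented by its brightest probe set, 1 of the 62 genes passed (1.61%, ZBTB2), against 5.52% of the 12529 genes tested this way. Probe sets whose suffix marks sequence shared between transcripts (22 with _s_at and 7 with _x_at) had median log2 fold changes of -0.05 and -0.06. The 3 with _a_at, shared by transcripts of the same gene, had a median of 0.16, and the 78 plain ones 0.02, and the 3 called ones are plain.

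The median log2 fold change was 0.005 over the 110 family probe sets, with 56 higher and 54 lower, against 0.013 over all 27458, with 52.0% higher. Under quantile normalization between arrays the same probe sets divided into 43 higher and 67 lower, at a median of -0.033, against 48.9% higher and -0.005 for all. The sign of the family's median thus did not hold across scalings. Relative to all probe sets the median was slightly lower in both. It was also lower with array medians centred (-0.02 against -0.012) and on log2(signal + 16) (0.004 against 0.011). With 1 array left out, the family's median relative to all probe sets ranged from -0.042 to 0.013. The family's median log2 signal per array was 5.68, 5.86 and 5.97 with BAHD1 siRNA, against 6.07, 6.05 and 5.96 with control siRNA. The groups overlapped only narrowly, where the third BAHD1 siRNA array stood just above the third control array, and this difference was not tested. Its range within each group is wider than the medians of fold change given here, which are a different measure. By class the medians were 0.018 for ZBTB (40 higher, 32 lower), 0.035 for ZSCAN (12 higher, 9 lower) and -0.064 for ZKSCAN (3 higher, 10 lower). The ZBTB and ZSCAN medians turned to -0.032 and -0.015 under quantile normalization, and the ZBTB median to -0.007 with array medians centred, while that of ZKSCAN stayed at -0.08 and -0.088. The ZKSCAN lean is small: all but 1 probe set each of ZKSCAN1, ZKSCAN2 and ZKSCAN8 lay between -0.12 and 0.20. It rests on 13 probe sets of 6 genes, 4 of the probe sets being from ZKSCAN1. Changes of more than 0.5 in size occurred in 7 of the 110 (6.36%), against 9.76% of all probe sets.

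The family's tested probe sets were dimmer than the array at large, at a median log2 signal of 5.91 against 6.63. Among the dimmest 25% of all tested, 51.4% of the 37 family probe sets were higher with BAHD1 siRNA, against 60.9% of all. Among the brightest 25%, 61.5% of the 13 family probe sets were higher, against 42.1% of all. The called probe set of ZSCAN32, 220292_at, lies among the dimmest, where 26 of all 6865 probe sets were called higher and 7 lower.

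**Figure D4:**
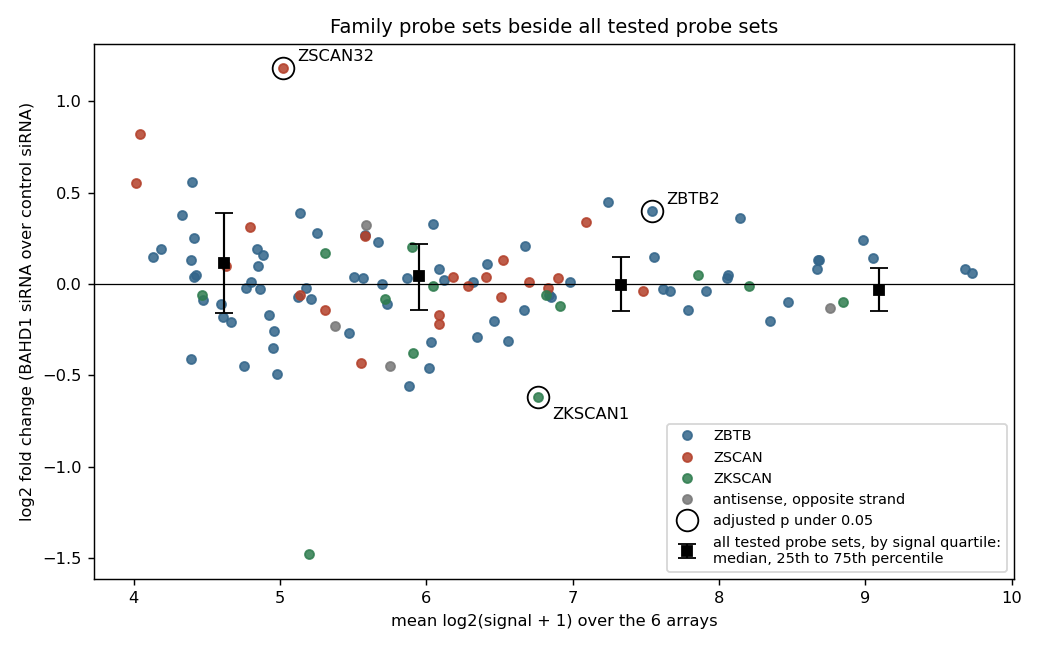
Log2 fold change (BAHD1 siRNA over control siRNA) of the 110 family probe sets against their mean log2(signal + 1) over the 6 arrays, coloured by class, with ZBTB2, ZSCAN32 and ZKSCAN1 circled. Black squares and bars give the median and the 25th to 75th percentile of all tested probe sets in each quartile of signal, whose medians pass from 0.11 in the dimmest to -0.04 in the brightest.

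A run of 11 of the genes lies on chromosome 6, mostly SCAN genes from ZSCAN12P1 to ZSCAN23 with gaps of at most 100 kb in the RefSeq annotation. Of the 16 probe sets tested there, 7 were higher and 9 lower with BAHD1 siRNA, and 0 passed in limma (smallest adjusted p 0.175, that of ZKSCAN8). Their log2 fold changes ran from -0.45 for the antisense RNA ZSCAN16-AS1 to 0.82 for ZSCAN12, with a median of -0.01. The antisense gene had probe sets on both sides, with 236777_at at 0.32 ± 0.19 and 244730_x_at at -0.45 ± 0.20. In the smaller runs, ZBTB44 and ZBTB47 had all their tested probe sets higher, but their neighbours ZBTB44-DT and ZBTB47-AS1 were not tested. ZBTB6 with ZBTB26, ZBTB34 with ZBTB43, and ZBTB1 with ZBTB25 had probe sets on both sides.

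The other 54 probe sets did not reach the filter, and 13 genes were not tested on any probe set. They include ZSCAN4 and ZSCAN10, known from mouse embryonic stem cells for telomere maintenance and pluripotency, ZBTB32 of lymphocytes, ZBTB7C, ZKSCAN7, ZSCAN1 and ZSCAN20. Mean signals of the 54 ran from 0.767 to 18.1 with a median of 6.62. ZSCAN4 gave 0.3, 0.7 and 2.2 with BAHD1 siRNA, against 0.7, 0.5 and 0.2 with control siRNA on 1552851_at, where no difference could be detected. Fitted without the filter, 25 of the 54 were higher and 29 lower, 0 passed in limma (smallest adjusted p 0.254) and 1 had an unadjusted p under 0.05. No tested family probe set had entered through the arrays of 1 group alone.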

How the data were processed

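Total RNA was labelled with biotin after oligo(dT) priming and hybridised to 1 array per sample, per the labels' protocols. The authors deposited 1 linear intensity per probe set and array, and the tools listed in the submitters' processing notes are GCOS and GCRMA. The values, scaled to a trimmed mean of 100, resemble scaled GCOS signals, and detection calls were not used here. Samples were grouped by title. Gene names came from the platform annotation given, and all 75 family symbols matched the RefSeq gene table by gene ID.

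Of 54675 probe sets, 62 controls were left out, and 27458 with a signal above 17.9, the median of non-control values, in at least 3 of 6 arrays were tested on log2(signal + 1) with limma 3.58.1 in R 4.3.3 (lmFit; eBayes with trend and robust; no covariates; Benjamini-Hochberg, 0.05). Exact permutation tests were two-sided (SciPy 1.17.1). The fits were tested on simulated data.

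Named probe sets are those past the threshold, the 8 genes with the smallest p in each direction, the 5 with the highest signal, and textbook members. Others are named as ends of ranges, by chromosomal run or as untested, and ZBTB4 was added after its values were seen. Members, lists, this rule and the choice of the intensity-trend fit were made with earlier results of these data known. Alternatives were the error prior, the filter, quantile normalization, centring, the pseudocount, array weights, a replicate block, the threshold and leaving out each array. Precision is limited by 3 arrays per group.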

Additional observations from a re-analysis of the deposited data

Results flagged for a closer look

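The probe sets for bacterial poly-A control RNAs, which lie outside the gene comparison, carried a difference between the groups. All 24 were higher with BAHD1 siRNA, without overlap, by a median log2 difference of 0.58. Their mean log2 signal was 9.21 ± 0.17 with BAHD1 siRNA and 8.63 ± 0.12 with control siRNA (SD, n = 3 each; two-sided exact permutation p = 0.1, the smallest possible). The 18 hybridisation control probe sets had a median log2 difference of -0.12. The part of this difference in the results for the family was not tested.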

How the results depend on the processing

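With all arrays, 2 family probe sets were called higher and 1 lower. With 1 error prior the counts were 0 and 0. Without the intensity filter 0 were higher and 1 lower, where 0.729% of all probe sets were called. At an adjusted p under 0.1, 5 were higher and 1 lower, and the share of all probe sets at that threshold was not counted. Leaving out 1 array gave 0 to 2 higher and 0 to 1 lower. No family probe set passed without control replicate 2, or without BAHD1 siRNA replicate 2 or 3. All array calls there numbered 279, 186 and 177, against 1221 with all arrays. ZSCAN32 alone of the family passed without control replicate 1, where 295 of all probe sets (1.07%) were called. Without control replicate 3 or BAHD1 siRNA replicate 1, 3 family probe sets passed, where 4.28% and 4.12% of all did. Quantile normalization, centred medians and log2(signal + 16) called the same 3 genes, and array weights added ZBTB24. These settings called 4.47%, 4.38%, 4.8% and 5.54% of all probe sets, in that order, against 4.45% in the main fit. The stricter filter left 35 family probe sets and called 3, of ZBTB2, ZBTB24 and ZKSCAN1, where 11.7% of all probe sets were called. Same-numbered arrays did not deviate together (correlations 0.0101, 0.0102 and 0.0239). The replicate block called 3 higher and 1 lower, adding ZBTB38 (225512_at, adjusted p = 0.0339), and called 5.93% of all probe sets. The family median relative to all probe sets, -0.008, ranged from -0.042 to 0.013 over the left-out arrays. BAHD1 ranged from -0.51 to -0.30. With arrays left out, uncalled values changed sign for ZBTB7A (-0.05 to 0.21), ZBTB16 (-0.38 to 0.15), ZBTB20 (-0.22 to 0.11), ZKSCAN3 (-0.09 to 0.11) and ZBTB33 (-0.0006 to 0.10). The cause of these differences was not tested. A 3-against-3 design, dim signals and probe sets that disagree within a gene limit the family's values.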

Other observations

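Relatives of the family that carry other symbols were read by the brightest tested probe set of each gene, in lists chosen with earlier results of these data known. Among 6 tested BTB zinc finger genes with other names, 1 passed in limma's intensity-trend fit. BCL6B, a homolog of the lymphoid repressor BCL6, rose, with 101.7, 83.1 and 102.6 with BAHD1 siRNA, against 55.3, 61.4 and 61.8 with control siRNA, without overlap (log2 fold change 0.67 ± 0.15, adjusted p = 0.0253, and 0.132 with 1 prior). Its 4 tested probe sets were all higher, from 0.21 to 0.74. BCL6 itself gave 0.10 ± 0.12, and its 3 tested probe sets spanned 0.10 to 0.51.

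Among 19 tested SCAN genes with other names, ZNF24, a SCAN zinc finger repressor of VEGFA, passed. It fell to 880.7, 792.7 and 779.1 with BAHD1 siRNA, against 1066.8, 1072.0 and 1025.4 with control siRNA (-0.37 ± 0.07, adjusted p = 0.015, and 0.162 with 1 prior), though its 5 tested probe sets spanned -0.50 to 0.10. ZNF215, an imprinted gene, gave 0.52 ± 0.14 (adjusted p = 0.0508).

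Among 19 tested corepressors and partners of BTB and KRAB proteins, TBL1X, a subunit of the NCOR and SMRT complexes, passed. It rose, with 337.3, 308.7 and 340.2 with BAHD1 siRNA, against 247.1, 256.2 and 274.0 with control siRNA (0.34 ± 0.09, adjusted p = 0.0419, and 0.173 with 1 prior), and its 5 tested probe sets spanned 0.01 to 0.44. Its paralogue TBL1XR1 gave 648.1, 653.4 and 644.0 with BAHD1 siRNA, against 717.1, 755.4 and 771.0 with control siRNA, lower without overlap but not called (-0.20 ± 0.07, adjusted p = 0.0996). The 5 tested probe sets of TBL1XR1 spanned -0.33 to 0.11. RCOR1, the CoREST scaffold, gave 0.34 ± 0.10 (adjusted p = 0.0799). TRIM28 gave 0.11 ± 0.08, SETDB1 -0.02 ± 0.12 and HDAC1 -0.07 ± 0.07. The 2 tested probe sets of SETDB1 spanned -0.40 to -0.02. In each list the share called, 1 of 6, 1 of 19 and 1 of 19, stands beside 5.52% of all genes tested in this way.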
